A study of Mus musculus with 59 samples.

Results

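The E2F transcription factors and their DP partners form the family whose activators, repressors and dimer partners were read here in mouse liver. The family was taken as the 10 genes E2f1 to E2f8, Tfdp1 and Tfdp2, and every probe set annotated to exactly 1 of these symbols was kept. This gave 21 of the 34945 probe sets with a single symbol, or 10 of 18193 genes. For each gene the probe set with the highest mean over the arrays of its normalization is called the main one, and 11 further probe sets are given beside the main ones. Livers came from mice 4 weeks old with 4 genotypes. They were wild type (wt, 12 arrays), an E2F3a knock-out (3aKO, 10 arrays), an E2f1 knock-in (1KI, 10 arrays) and an E2f3b knock-in (3bKI, 5 arrays). All 4 groups shared a mixed background of FVB/NT, 129S1/Svlmj and C57BL/6NT, and none had a further treatment in the labels. The sources used here do not name the locus that received the knock-in sequences. They also do not tell whether each array is a different mouse, and the p-values therefore refer to the spread among samples, part of which may be technical.

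E2F proteins bind promoters of genes for DNA replication and cell division and set their transcription as cells enter S phase. E2F1, E2F2 and E2F3 act mainly as activators that the retinoblastoma protein holds in check, E2F4, E2F5 and E2F6 act mainly as repressors, and the atypical E2F7 and E2F8 repress without a DP partner. E2F1 to E2F6 bind DNA as dimers with DP1 or DP2, which Tfdp1 and Tfdp2 encode. E2f3 yields a long product, E2F3a, and a shorter one, E2F3b, from separate start sites of 1 gene. In liver, E2F1, E2F7 and E2F8 are known for their roles in the polyploidization of hepatocytes, which takes place in the weeks around weaning.

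Values are log2 signals that the authors normalized in 2 runs, called normalization 1 (wt, 3aKO and 1KI arrays) and normalization 2 (wt, 3aKO and 3bKI arrays, with the controls repeated). Each knock-in was therefore compared with wt and 3aKO inside its own run, the comparisons share these control arrays, and 1KI was not set against 3bKI. Of 8 hepatocyte markers 7 were measured, and each was high on every array (Alb from 14.90 to 15.04, Hnf4a from 12.53 to 13.30), as the liver label says. The hybridization controls, transcripts added at the hybridization step, stood higher on all knock-in arrays (means of 11.3 in 1KI and 11.6 in 3bKI) than on 3aKO arrays (10.2), and of the wt arrays only replicates 1 and 2 reached the knock-in level. The 3' minus 5' signal of housekeeping genes, which grows as RNA breaks down, was 0.31 ± 0.038 (SD, n = 5) in 3bKI and 0.56 ± 0.050 (SD, n = 12) in wt, and 1KI replicate 6 stood apart at 1.75. The poly-A controls, transcripts added before labelling, ran from 13.77 to 13.85 in 3bKI and no higher than 9.70 in wt and 9.21 in 3aKO, so that the wt arrays at the higher hybridization level do not share the poly-A level of 3bKI, and no model here takes it up. In normalization 1 the poly-A controls overlapped (8.99 to 10.86 in 1KI, 8.55 to 9.75 in wt). Genotype cannot be told apart from the hybridization control level between the knock-ins and 3aKO, nor from the poly-A level between 3bKI and both controls. Bulk RNA from a liver cannot tell fewer cells of a type from less RNA per cell.

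The sequences just before 3 of these genes show where the letters of an E2F site occur near a member's own start. RefSeq promoter windows of GRCm38.p6, 250 bases before to 50 after a start site, were matched for 8 of the 10 members by symbol and gave 12 windows, while E2f4 and E2f5 were not matched. The motifs TTTCCCGC, TTTCGCGC, TTTGCCGC and TTTGGCGC were searched on both strands. A match was present in 5 of the 12 member windows (41.7%) and in 744 of all 32851 windows (2.3%). E2f3 is shown at both of its start sites, 1672 bases apart on the minus strand of chromosome 13, since its products come from separate starts, and which product each of these starts gives was not analysed here. Tfdp1 is shown because it followed the E2F target genes across arrays, and E2f8 because its main probe set changed most. E2f1 followed these target genes at least as closely (correlations of 0.85 and 0.81, beside 0.84 and 0.73 for Tfdp1). The E2f1 window, which held no match, is not printed. The 250 bases before each start are written 5′ to 3′ on the strand of the gene, with the motif in capitals. They are chr13:29986064-29986313 (upstream start of E2f3, minus strand), chr13:29984392-29984641 (downstream start of E2f3, minus strand), chr8:13338501-13338750 (upstream start of Tfdp1, plus strand) and chr7:48881597-48881846 (E2f8, minus strand).
E2f3 upstream start: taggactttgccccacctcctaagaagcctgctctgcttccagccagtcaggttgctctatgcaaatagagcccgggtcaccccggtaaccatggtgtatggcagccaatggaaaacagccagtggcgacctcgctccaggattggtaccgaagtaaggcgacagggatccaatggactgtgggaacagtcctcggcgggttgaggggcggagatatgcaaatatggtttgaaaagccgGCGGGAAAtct
E2f3 downstream start: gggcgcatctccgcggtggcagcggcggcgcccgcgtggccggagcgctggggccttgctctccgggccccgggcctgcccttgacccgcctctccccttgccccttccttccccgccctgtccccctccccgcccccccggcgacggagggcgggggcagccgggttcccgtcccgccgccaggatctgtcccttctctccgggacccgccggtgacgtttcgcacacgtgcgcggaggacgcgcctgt
Tfdp1 upstream start: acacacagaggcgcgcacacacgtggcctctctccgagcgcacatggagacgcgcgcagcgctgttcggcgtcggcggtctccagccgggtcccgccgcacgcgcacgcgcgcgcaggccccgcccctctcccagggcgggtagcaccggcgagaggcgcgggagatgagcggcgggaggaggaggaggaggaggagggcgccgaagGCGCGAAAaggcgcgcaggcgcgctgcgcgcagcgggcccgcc
E2f8: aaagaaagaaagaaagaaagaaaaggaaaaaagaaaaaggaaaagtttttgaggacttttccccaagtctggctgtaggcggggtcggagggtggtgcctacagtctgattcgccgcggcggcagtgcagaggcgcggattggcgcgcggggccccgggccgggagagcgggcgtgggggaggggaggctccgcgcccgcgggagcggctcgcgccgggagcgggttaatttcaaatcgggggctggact
The upstream E2f3 window held GCGGGAAA with its first base at -11 from the start, the reverse complement of TTTCCCGC, and the window of the downstream start held none of these letters. Tfdp1 held GCGCGAAA at -43 from its upstream start, and the same site was the match of its second window. E2f7 held GCGGGAAA at -198, and E2f2 held TTTGGCGC at 40 after the first of its starts. The windows of E2f1, E2f6, E2f8 and Tfdp2 held no match, and sequence beyond the windows was not searched. The E2f1 window and that of the second E2f2 start read in part as coding sequence. The lack of a match in the E2f1 window therefore does not speak of the sequence before its coding region. A match is a string of letters in a window and is not evidence of binding.

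Among the members, E2f4 stood higher and Tfdp2 and E2f8 lower in 3bKI livers than in wt livers, with log2 changes of 0.34, -0.40 and -0.84, and the E2f4 and Tfdp2 probe sets also passed between 1KI and 3aKO. A gene is said to rise or fall where limma's test over all genes gave an adjusted p under 0.05. In 3aKO against wt 0 of 10 members passed, where 0.176% of all genes did, and 2 members had an unadjusted p under 0.05. In 1KI against wt 1 member fell (27.6% of all genes passed) and 4 had an unadjusted p under 0.05. In 1KI against 3aKO 2 members rose and 2 fell (31.0% of all genes passed). In 3bKI against wt 2 rose and 3 fell (29.2% of all genes passed), and in 3bKI against 3aKO 1 rose and 2 fell (34.2% of all genes passed). The 1, 4, 5 and 3 of 10 members that passed in the knock-in comparisons thus stand beside about 3 in 10 of all genes, and nothing particular to the family is read from them. Of the 11 further probe sets, which were tested among all probe sets with 1 symbol, 3 passed between 1KI and wt, where 30.8% of all such probe sets that are not the main one of their gene did, and 5 between 1KI and 3aKO (33.2%). For 3bKI 3 passed relative to wt (31.3%) and 4 relative to 3aKO (35.7%). Between 3aKO and wt limma called 0 of the 11 (0.609%), and 1 had an unadjusted p under 0.05. The median log2 change of the members was 0.03 between 3aKO and wt (all genes -0.01), -0.045 between 1KI and wt (all genes -0.048) and -0.10 between 1KI and 3aKO (all genes -0.03). For 3bKI it was -0.10 relative to wt (all genes 0.0012) and -0.069 relative to 3aKO (all genes 0.018). No member call of a knock-in comparison held once a block for the level of the hybridization controls was in the model, and those of 3bKI did not hold with the 3' minus 5' measure as a covariate, as given further on. In these fits the number of calls over all genes fell as well.

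**Figure D1:**
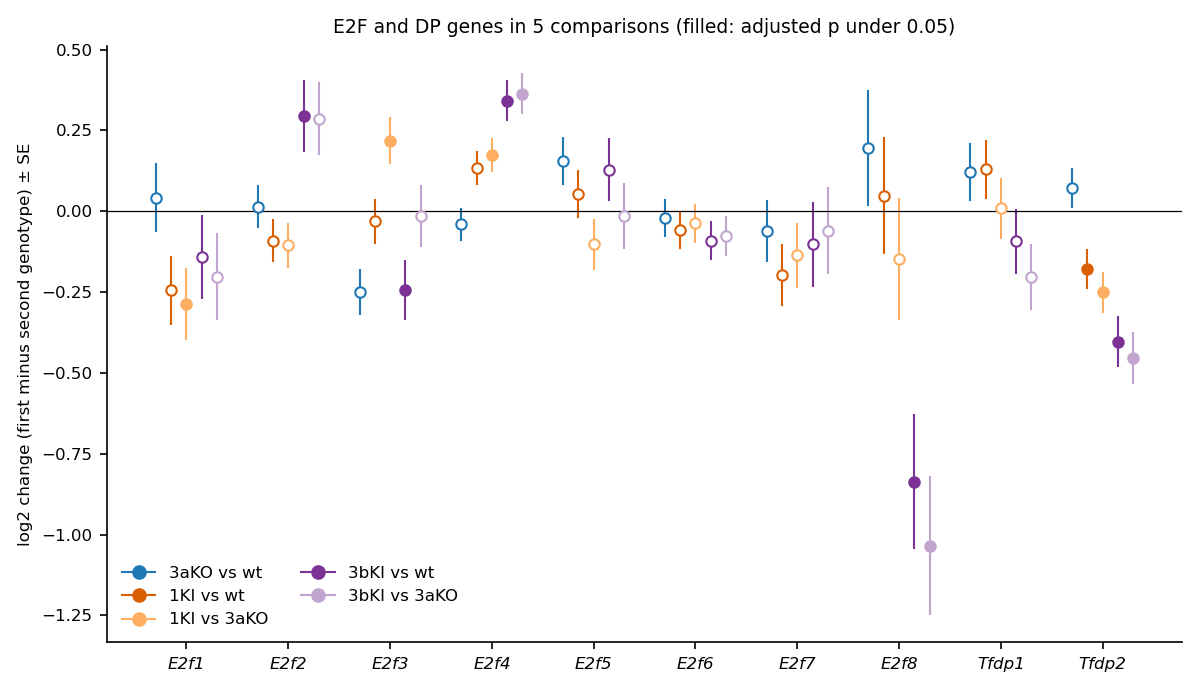
Log2 change of the main probe set of each member with its standard error (vertical axis) in 5 comparisons (colours), with filled points where the adjusted p was under 0.05. E2f4 lies above 0 and Tfdp2 and E2f8 below 0 in both 3bKI comparisons, and no point of 3aKO against wt is filled.

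E2f1, the activator whose knock-in defines 1KI, did not rise in 1KI livers at any of its 3 probe sets. On 1KI arrays its main probe set 1417878_at ran from 6.16 through a median of 6.32 to 6.90, on wt arrays from 6.25 through 6.49 to 7.27, and on 3aKO arrays from 6.47 through 6.63 to 7.16. The 3 groups overlapped, and replicates 8 and 9 were the highest 1KI arrays. Against 3aKO the main probe set fell by 0.29 ± 0.11 (SE, adjusted p = 0.0494), lower in 8 of 10 arrays. The call is at the threshold: 4 of 20 fits with an array removed kept it, with changes between -0.34 and -0.23. Against wt the change was -0.25, with an interval from -0.46 to -0.027 and an adjusted p of 0.0864. The other probe sets had changes of -0.19 and -0.10 against wt and passed in 0 of the 5 comparisons. Whether any of these probe sets reads the knock-in sequence was not analysed here.

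In 3bKI livers E2f1 did not pass against wt or 3aKO. At its main probe set the 5 arrays read 6.46, 6.41, 6.37, 6.45 and 6.21, with an SD of 0.10 beside 0.30 in wt and 0.25 in 3aKO, while at 1447840_x_at the SD was 0.18 in 3bKI, 0.13 in wt and 0.088 in 3aKO. All 5 lay below the means of wt (6.52) and of 3aKO (6.58), replicate 5 also lay below the lowest 3aKO array (6.32), and the changes of -0.14 (interval -0.41 to 0.12) and -0.20 (interval -0.47 to 0.07) did not pass.

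E2f2, an activator with a role in erythroid and lymphoid cells, rose in 3bKI against wt by 0.29 ± 0.11 (SE, adjusted p = 0.0434). The 5 arrays of 3bKI read 7.12, 6.45, 7.51, 6.85 and 6.70, and the wt arrays ran from 6.30 through a median of 6.65 to 6.81. Replicates 1 and 3 stood highest, 3 of the 5 arrays exceeded the highest wt array, and replicate 2 lay below the wt median. The same replicates, 3 and 1, were also the highest 3bKI arrays in the mean of 7 markers of cycling cells, with 7.62 and 6.75 against 5.62, 5.85 and 5.33 in replicates 2, 4 and 5. The part of cycling cells in the E2f2 values was not tested. Without 3bKI replicate 1, 3 or 4 the call was lost, as it was without any 1 of 7 wt arrays, and the changes over all such fits lay between 0.15 and 0.41. Against 3aKO the change was 0.29 (adjusted p = 0.0506). The second probe set, 1455790_at, had changes of 0.14 and 0.09 in the same comparisons and did not pass. Of 6 measured erythroid markers 1 rose in 3bKI against wt, and their mean was 6.09 (range 5.69 to 6.39) in 3bKI and 5.94 (range 5.71 to 6.15) in wt. Of 7 lymphocyte markers 2 rose there. Both counts stand beside the 29.2% of all genes that passed in 3bKI against wt, and nothing particular to these cells is read from them.

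E2f3, the gene that yields both E2F3a and E2F3b, is read by 2 probe sets whose main one, 1434564_at, had a lowest, median and highest value of 7.50, 7.72 and 7.97 on 3aKO arrays and of 7.70, 8.00 and 8.29 on wt arrays. All 10 of the 3aKO arrays lay below the wt mean of 8.00, while the ranges overlapped, and the change of -0.25 ± 0.07 (SE) had an adjusted p of 0.134. In 1KI the values ran from 7.63 through 8.00 to 8.13, close to those of wt (change -0.03, interval -0.17 to 0.11), and stood above 3aKO by 0.22 ± 0.073 (SE, adjusted p = 0.0217), higher in 9 of 10 arrays. That call was kept in 20 of 20 fits without 1 array.

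In 3bKI the probe sets of E2f3 parted. The main one read 7.61, 7.63, 7.32, 7.91 and 7.86, around those of the 3aKO arrays (7.44 to 7.88), with replicate 3 below and replicate 4 above their range (change -0.016, interval -0.21 to 0.18), and it fell against wt by 0.24 ± 0.093 (SE, adjusted p = 0.0491). The second, 1427462_at, read 6.12, 5.82, 5.96, 6.35 and 6.12, higher than the 3aKO mean of 5.68 in 5 of 5 arrays, and rose against 3aKO by 0.40 ± 0.081 (SE, adjusted p = 0.000308). Its change against wt was 0.20 (adjusted p = 0.0561). In 1KI the second probe set stood 0.18 above 3aKO (adjusted p = 0.0352), kept in 11 of 20 fits without 1 array. Which of the E2F3a and E2F3b transcripts each probe set reads was not analysed here. The fall of the main probe set against wt was kept in 6 of 17 fits with an array removed and lost without 3bKI replicate 1, 2 or 3 or any 1 of 8 wt arrays.

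**Figure D2:**
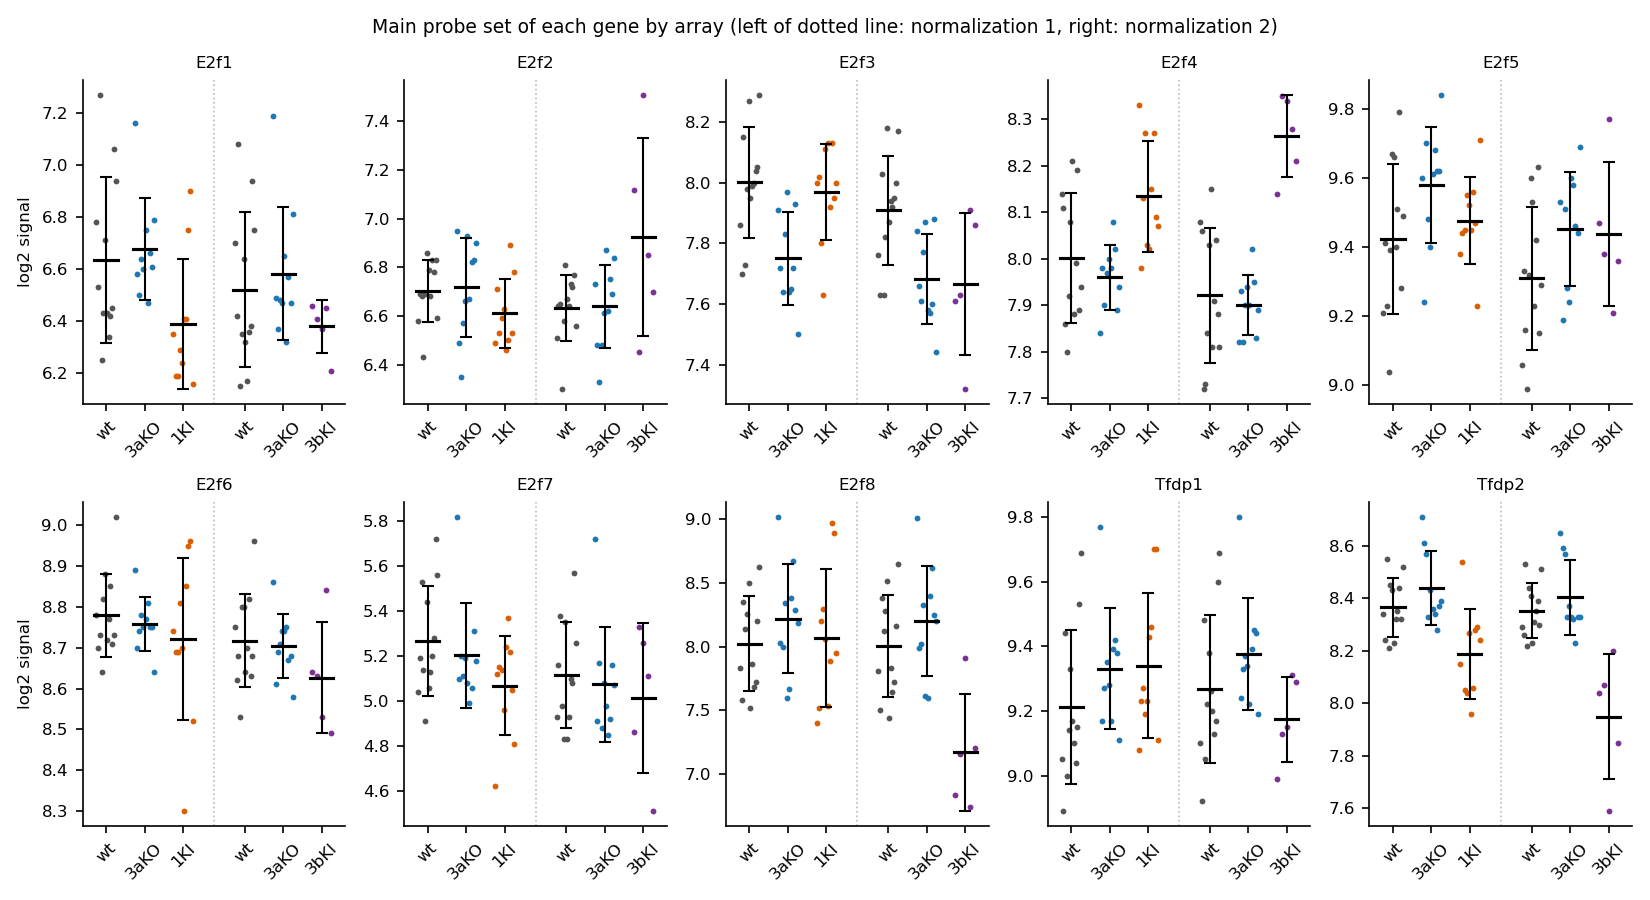
Log2 signal (vertical axis, a scale of its own in each panel) of the main probe set of each member by genotype, with 1 point per array and bars for the mean and SD; wt, 3aKO and 1KI from normalization 1 stand left of the dotted line, and wt, 3aKO and 3bKI from normalization 2 right of it. The 5 points of 3bKI lie above all 3aKO points for E2f4 and below all wt and 3aKO points for Tfdp2.

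E2f4, the repressor that pairs with p130 and p107 in resting cells, passed in 3 of the 4 comparisons with a knock-in. Its only probe set, 1451480_at, read 8.14, 8.35, 8.34, 8.28 and 8.21 in 3bKI, ran from 7.72 through 7.90 to 8.15 in wt, and from 7.82 through 7.90 to 8.02 in 3aKO. Every 3bKI array exceeded every 3aKO array, and 4 of the 5 exceeded every wt array. E2f4 rose by 0.34 ± 0.063 (SE, adjusted p = 0.000101) against wt and by 0.36 ± 0.065 (SE, adjusted p = 5.47e-05) against 3aKO. With Tfdp2 it is 1 of 2 members whose main values did not overlap between 3bKI and 3aKO, where 12.2% of all genes did not.

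In 1KI the E2f4 values ran from 7.98 through 8.11 to 8.33. They were above the 3aKO mean of 7.96 in 10 of 10 arrays and rose against 3aKO by 0.17 ± 0.054 (SE, adjusted p = 0.0129). Against wt, which ran from 7.80 through 7.97 to 8.21, the change of 0.13 ± 0.052 had an adjusted p of 0.0514 and passed in 9 of 22 fits without 1 array. The calls of E2f4 in both 3bKI comparisons and against 3aKO in 1KI were kept in every fit without 1 array. The 2 wt arrays at the knock-in level of the hybridization controls read 8.14 and 8.11 in normalization 1, in the upper part of the wt range.

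E2f5, a repressor close to E2F4 in its pocket protein partners, did not pass in any comparison at any of its 3 probe sets. The largest change of its main probe set, 1447625_at, was 0.16 in 3aKO against wt (interval 0.0047 to 0.31, adjusted p = 0.402), where 8 of 10 3aKO arrays lay above the wt mean. In 1KI and 3bKI its changes against wt were 0.053 (interval -0.098 to 0.20) and 0.13 (interval -0.073 to 0.33). The other probe sets, 1417444_at and 1460207_s_at, had changes between -0.18 and -0.13 in both comparisons of a knock-in with wt, the opposite sign to the main one, without passing. The wt arrays spread more at 1417444_at (7.07 to 8.36) than the 1KI arrays (7.27 to 7.59).

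E2f6, which represses through Polycomb-like partners and not through pocket proteins, fell at its second probe set in all 4 comparisons with a knock-in. That probe set, 1437914_at, read 5.77, 6.05, 6.01, 5.82 and 5.80 in 3bKI, and ran from 5.94 through 6.07 to 6.24 in wt and from 6.02 through 6.09 to 6.31 in 3aKO. Replicates 2 and 3 lay inside the wt range and all others below it. The falls were 0.19 and 0.22 in 1KI against wt and 3aKO (adjusted p = 0.0162 and 0.00879) and 0.20 and 0.21 in 3bKI against wt and 3aKO (adjusted p = 0.00814 and 0.00583), all kept in every fit without 1 array. The main probe set, 1448835_at, had changes between -0.092 and -0.037 in the same comparisons and did not pass. The difference between the 2 probe sets was itself not past the threshold in any of these comparisons.

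E2f7, an atypical repressor, is read by 1437187_at alone, with medians of 5.20 in wt, 5.15 in 3aKO and 5.13 in 1KI in normalization 1. It passed in 0 of 5 comparisons, and its change in 1KI against wt was -0.20 (interval -0.39 to -0.0036, adjusted p = 0.122). In 3bKI it read 4.86, 5.33, 5.26, 5.11 and 4.51, with replicate 5 below every wt and 3aKO array, and the change against wt was -0.10 (interval -0.37 to 0.16).

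E2f8, the other atypical repressor, showed the largest changes among the members, in 3bKI at its main probe set 1436186_at. The 3bKI arrays read 6.83, 7.16, 7.91, 6.74 and 7.20, the wt arrays ran from 7.44 through 7.98 to 8.65, and the 3aKO arrays from 7.60 through 8.23 to 9.01. Replicate 3 lay inside the range of the controls, and all others lay below every wt and 3aKO array. E2f8 fell against wt, with a change of -0.84 ± 0.21 (SE, adjusted p = 0.00271), and against 3aKO, with a change of -1.04 ± 0.21 (SE, adjusted p = 0.000352), and both calls were kept in every fit without 1 array. In 1KI the values ran from 7.40 through 8.01 to 8.97, with replicates 8 and 9 highest, and the changes of 0.049 and -0.15 against wt and 3aKO did not pass (intervals -0.32 to 0.41 and -0.53 to 0.23). The second probe set, 1444319_at, had a change of 0.0090 (interval -0.25 to 0.27) in 3bKI against wt and rose in 1KI against 3aKO by 0.38 ± 0.14 (SE, adjusted p = 0.0333).

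Tfdp1, which encodes the widely expressed partner DP1, did not pass in any comparison. Its probe set 1423241_a_at ran from 8.89 through 9.15 to 9.69 in wt, from 9.11 through 9.32 to 9.77 in 3aKO and from 9.08 through 9.25 to 9.70 in 1KI. The changes against wt were 0.12 in 3aKO (interval -0.063 to 0.30) and 0.13 in 1KI (interval -0.054 to 0.31). In 3bKI it read 8.99, 9.13, 9.15, 9.31 and 9.29, below the 3aKO mean of 9.38 in 5 of 5 arrays, with a change of -0.20 (interval -0.41 to 0.0077, adjusted p = 0.132).

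Tfdp2, which encodes the partner DP2, fell in all 4 comparisons with a knock-in at its main probe set 1437174_at. The 3bKI arrays read 8.04, 8.07, 7.59, 8.20 and 7.85, below every wt array (8.22 through 8.33 to 8.53) and every 3aKO array (8.23 through 8.33 to 8.65). It was the only member whose main values did not overlap between 3bKI and wt, where 7.18% of all genes did not. The falls were 0.40 ± 0.078 (SE, adjusted p = 0.000202) against wt and 0.46 ± 0.081 (SE, adjusted p = 5.46e-05) against 3aKO. In 1KI the arrays ran from 7.96 through 8.20 to 8.54, overlapping wt (8.21 through 8.35 to 8.55), with 9 of 10 arrays below the wt mean. Here Tfdp2 fell by 0.18 ± 0.061 (SE, adjusted p = 0.0268) against wt and by 0.25 ± 0.064 (SE, adjusted p = 0.00268) against 3aKO. The call against wt was lost without 1KI replicate 3, 4 or 6, with changes between -0.22 and -0.15 over the fits without 1 array. Taken as the mean of the 4 probe sets of Tfdp2, the change had the other sign (0.019).

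The other probe sets of Tfdp2 went both ways. 1443962_at fell with the main one in the 4 comparisons with a knock-in, by 0.24 and 0.30 in 1KI and by 0.36 and 0.44 in 3bKI against wt and 3aKO. Its 3bKI arrays read 7.59, 7.68, 7.30, 7.73 and 7.57, below all 3aKO arrays (lowest 7.85). Between these groups 12.2% of all probe sets with 1 symbol did not overlap. Replicates 2 and 4 of 3bKI lay inside the wt range of 7.67 to 8.13. 1435344_at, with changes from -0.32 to 0.014 in these comparisons, did not pass. 1445873_at rose in all 4, by 0.48 ± 0.10 (SE, adjusted p = 0.000649) between 1KI and wt, 0.42 between 1KI and 3aKO, and 0.28 and 0.21 in 3bKI relative to wt and 3aKO. Its 1KI arrays ran from 4.43 through 4.76 to 5.48, with replicates 5, 6 and 10 at 5.44, 5.30 and 5.48, against 4.10 through 4.46 to 4.55 in wt.

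**Figure D3:**
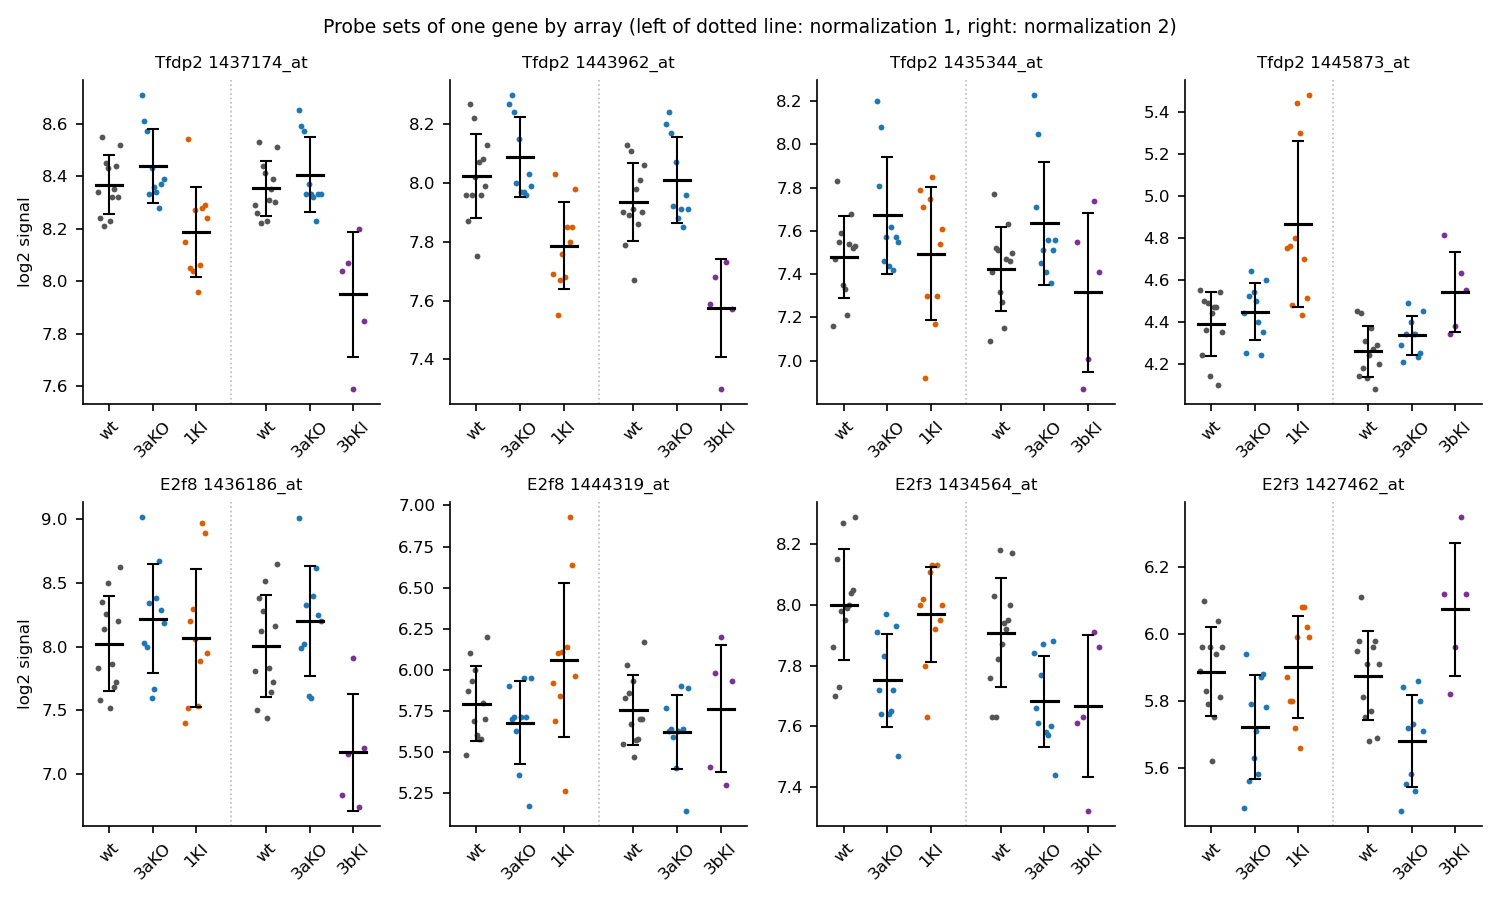
Log2 signal (vertical axis, a scale of its own in each panel) of 4 probe sets of Tfdp2, 2 of E2f8 and 2 of E2f3 by genotype, with 1 point per array and bars for the mean and SD; normalization 1 stands left of the dotted line and normalization 2 right of it. In 3bKI the main probe sets of Tfdp2 and E2f8 (1437174_at and 1436186_at) are low while 1445873_at and 1444319_at of the same genes are not.

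Whether 2 probe sets of a gene moved apart was tested on each array's difference between them, by 2-sided permutation of the arrays, exact where a group had fewer than 10, with adjustment over 55 tests. The difference passed in 9 of the 55 tests, in 3 genes. In each the other probe set was a weak one: 1445873_at of Tfdp2, 1444319_at of E2f8 and 1427462_at of E2f3 had mean signals of 4.34, 5.71 and 5.84 in normalization 2, where the median over genes was 6.87. For Tfdp2, 1445873_at moved up relative to the main probe set by 0.66 and 0.67 in 1KI against wt and 3aKO (permutation, adjusted p = 0.0011 in both) and by 0.69 and 0.66 in 3bKI against wt and 3aKO (exact permutation, adjusted p = 0.00297 and 0.00305, with p at the smallest value the 5 arrays allow). The relative signal ran from -3.78 to -2.66 in 1KI and from -4.34 to -3.78 in wt, so that the groups met at -3.78. The 2 wt arrays at the higher hybridization control level, replicates 1 and 2, read -3.79 and -4.00. In normalization 2 they read -3.84 and -4.12, where wt ran from -4.31 to -3.84 and 3bKI from -3.73 to -3.21, so that replicate 1 was the wt array nearest to 3bKI.

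For E2f8 the second probe set moved up relative to the main one by 0.85 in 3bKI against wt and 1.18 against 3aKO (exact permutation, adjusted p = 0.00305 in both), and by 0.53 in 1KI against 3aKO (permutation, adjusted p = 0.0224). In 3bKI the difference ran from -1.71 to -1.18, and in wt from -2.61 to -1.67. The wt replicates 1 and 2 read -2.26 and -1.67, so that the second of them reached the 3bKI range. For E2f3 the second probe set moved up relative to the main one by 0.44 in 3bKI against wt and 0.41 against 3aKO (exact permutation, adjusted p = 0.0114 and 0.0224). The same wt arrays read -1.81 and -1.65 there, at the top of the wt range of -2.31 to -1.65 and inside that of 3bKI, -1.81 to -1.36. The part of RNA integrity, lower in its 3' minus 5' measure in 3bKI, in these differences was not tested.

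With a block for the level of the hybridization controls in the model, 0 of 10 members passed in each comparison of a knock-in with wt or 3aKO. In that fit the wt arrays alone span both levels, so that the 2 wt arrays at the higher level carry the adjustment. The E2f4 change in 3bKI against wt went from 0.34 to 0.19 (adjusted p = 0.212), that of E2f8 from -0.84 to -0.49 (adjusted p = 0.404) and that of Tfdp2 from -0.40 to -0.33 (adjusted p = 0.103). In 1KI against wt the Tfdp2 change went from -0.18 to -0.10 (adjusted p = 0.657). In 1KI against 3aKO that of E2f4 went from 0.17 to 0.025 (adjusted p = 0.942) and that of E2f3 from 0.22 to 0.48 (adjusted p = 0.0548). Tested among all probe sets instead of genes, this last change had an adjusted p of 0.0408, and it was the only member change with a knock-in past the threshold under the block. With the 3' minus 5' measure as a covariate, 0 members passed in both 3bKI comparisons. Over all 18193 genes that fit called 605 in 3bKI against wt and 116 against 3aKO. The values of the measure do not overlap between 3bKI and the controls. With it, the changes against wt were 0.24 for E2f4, -0.46 for E2f8, -0.44 for Tfdp2, 0.032 for E2f2 and -0.026 for E2f3. Under the level block those of E2f2 and E2f3 were 0.35 (adjusted p = 0.235) and -0.029 (adjusted p = 0.940). Over all genes, the fit with the block called 782 genes in 1KI against wt, beside 5026 without it, and 1583 in 3bKI against wt, beside 5318. Against 3aKO it called 417 genes in 1KI and 1232 in 3bKI, beside 5636 and 6218. Of the 5026 genes called in 1KI against wt 1850 were higher and 3176 lower, and after quantile normalization 2331 were higher and 2333 lower; against 3aKO the split was 2174 higher and 3462 lower, and 2831 and 2807 after quantile normalization.

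**Figure D4:**
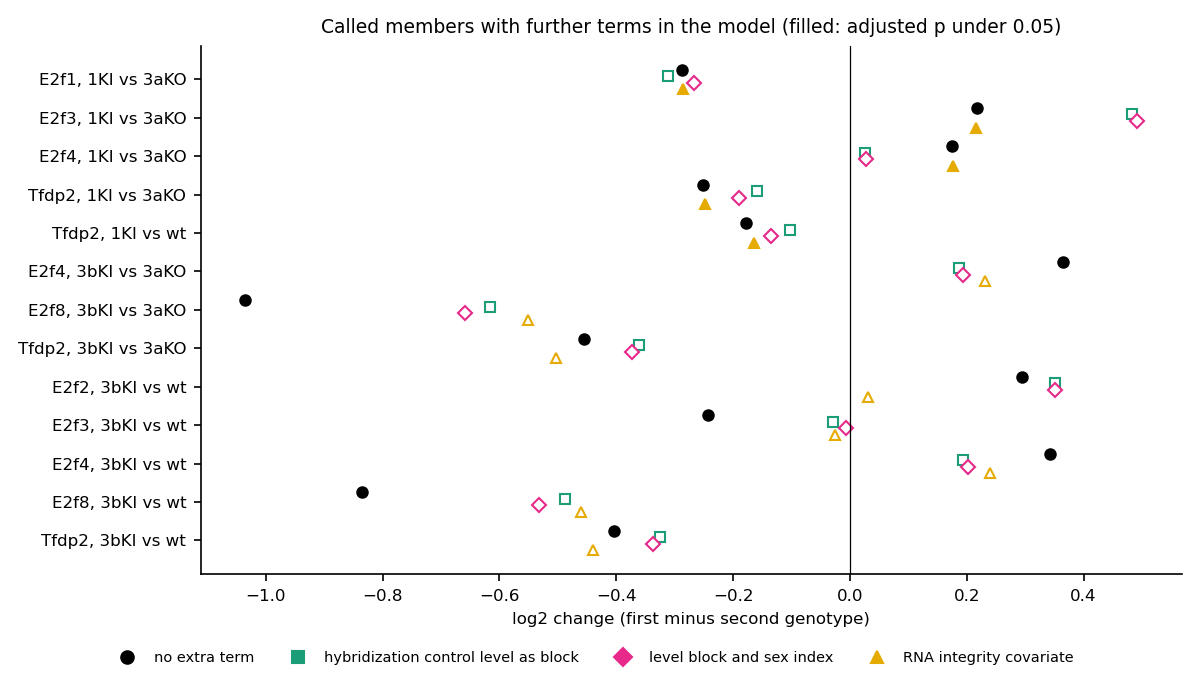
Log2 change (horizontal axis) of the 13 member calls with no extra term, with a block for the level of the hybridization controls, with that block and a sex index, and with the RNA integrity measure as a covariate; filled markers have an adjusted p under 0.05. No marker of either block is filled. All 13 changes keep their sign under all 4 models, those of E2f2 and E2f3 in 3bKI against wt with values near 0 under the integrity covariate (0.032 and -0.026).

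Within a genotype, E2f1, E2f7, E2f8 and Tfdp1 varied together from array to array. Deviations from the genotype mean were correlated over 32 arrays of normalization 1 and 27 of normalization 2, of which 22 are the same samples. These values share labelling, hybridization and normalization and are given as a description. Pearson's r was 0.76 and 0.59 between E2f1 and Tfdp1, 0.62 and 0.70 between E2f1 and E2f7, 0.73 and 0.63 between E2f8 and Tfdp1, and 0.72 and 0.52 between E2f7 and Tfdp1. It was lower between E2f1 and E2f8 (0.57 and 0.42) and between E2f7 and E2f8 (0.44 and 0.43). Some pairs with other members had values as high. E2f3 and Tfdp1 had 0.60 and 0.69, E2f6 and Tfdp1 had 0.51 and 0.51, and E2f3 and Tfdp2 had 0.44 and 0.54. E2f4 had values from -0.35 to -0.11 with E2f1, E2f7, E2f8 and Tfdp1 in both normalizations, and E2f5 had values between -0.21 and 0.15 with these genes. E2f2 was closest to E2f5, with 0.48 and 0.62.

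**Figure D5:**
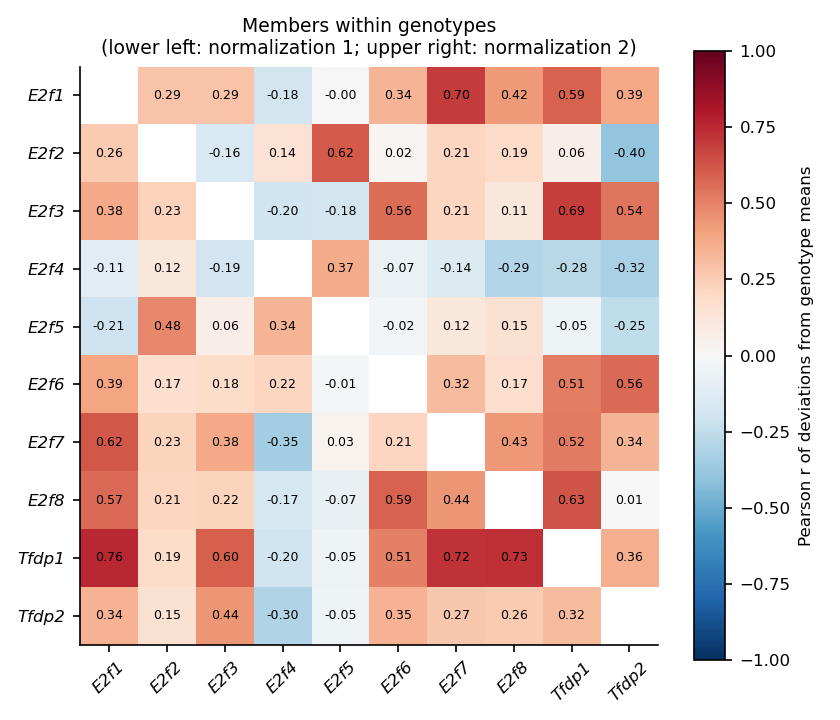
Pearson's r (colour and printed value) between the deviations of each pair of members from their genotype means, over 32 arrays of normalization 1 in the lower left and 27 arrays of normalization 2 in the upper right. E2f1, E2f7, E2f8 and Tfdp1 have positive values with each other in both normalizations, and E2f4 has negative values with these genes.

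The same members tracked the list of E2F target genes that rise at the passage from G1 to S phase, 27 of 28 of which were measured. The correlation of the deviations with the list's mean was 0.85 and 0.81 for E2f1, 0.84 and 0.73 for Tfdp1, 0.73 and 0.70 for E2f7 and 0.69 and 0.51 for E2f8, in normalizations 1 and 2. It was 0.49 and 0.41 for Tfdp2, 0.42 and 0.41 for E2f6, 0.43 and 0.37 for E2f3 and 0.34 and 0.40 for E2f2. For E2f5 it was -0.044 and 0.11, and for E2f4 -0.24 and -0.32. The array 3aKO replicate 1, the highest of its genotype in this list's mean (9.13) and in that of cycling cell markers (7.80), was also its highest array for E2f1, E2f7, E2f8 and Tfdp1.

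The genes whose deviations were most like each member's were named by the highest r in normalization 1 over 32 arrays. For E2f1 they were Stil (0.88), Dnajc9 (0.87) and Cdc25a (0.86), and for Tfdp1 they were Nup160 (0.89), Cdc6 (0.88), which loads the replicative helicase, and Nasp (0.87), a histone chaperone. For E2f7 they were Zranb3 (0.80), Atad2 (0.79) and Kntc1 (0.78), and for E2f8 Ect2 (0.77), which acts in cytokinesis, Cse1l (0.76) and Exosc2 (0.76). In normalization 2 these 12 genes had values between 0.49 and 0.85 with their members. The genes most like E2f4 were Crhr1 (0.76), Wnt10a (0.73) and Ap2a1 (0.71), those most like E2f3 were Ddx52 and Ttf2 (0.685 each) and Prrc1 (0.675), and those most like Tfdp2 were Wwtr1 (0.77), Gucy1a1 (0.74) and Ptpn4 (0.72), and of these 9 Prrc1 (0.10) and Wnt10a (0.40) had the lowest values in normalization 2. The gene most like E2f6 was Spty2d1, with an r of 0.90 in normalization 1 (0.83 without 1KI replicate 6) and 0.19 in normalization 2. The likeness of E2f2 to A930006K02Rik fell likewise from 0.63 to 0.12 between normalizations, and that of E2f5 to Gm13483 was 0.69 and 0.52.

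Genes around the family were read from lists of its regulators, complexes and targets, in which 0 genes passed in 3aKO against wt, while 32 of all 18193 genes did. Of 19 regulators (pocket proteins, cyclins, kinases and their inhibitors), 4 rose and 2 fell in 1KI against wt, where 27.6% of all genes passed. Cdkn1b, the inhibitor p27, rose by 0.94 ± 0.10 (SE, adjusted p = 4.29e-08), Cdkn1a, the inhibitor p21, by 0.81 ± 0.19 and the kinase gene Cdk6 by 0.26, and Cdkn2d, the inhibitor p19, fell by 0.49. In 3bKI against wt 2 rose and 3 fell, where 29.2% of all genes passed. Cdkn1b rose by 0.79 ± 0.15 and Cdkn1a by 1.06 ± 0.24, while Ccne2, a cyclin E gene and E2F target, fell by 1.00 ± 0.24 and Skp2, which marks p27 for degradation, by 0.68 ± 0.17. The list's median change was -0.06 in 1KI and -0.09 in 3bKI, against -0.048 and 0.0012 over all genes. Under the hybridization control block 0 regulators passed in 1KI against wt, and Cdkn1a alone in 3bKI against wt (1.25, adjusted p = 0.0381). That fit called 782 and 1583 of all 18193 genes in these 2 comparisons.

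Among the 27 target genes of the G1 to S passage, 5 fell and 0 rose in 1KI against wt (27.6% of all genes passed), and 4 fell and 0 rose in 3bKI against wt (29.2%). Pola1, the catalytic subunit of DNA polymerase alpha, fell by 0.93 ± 0.11 (SE, adjusted p = 7.08e-08) in 1KI and by 0.76 ± 0.13 in 3bKI. Rfc3 of the clamp loader fell by 0.72, Tk1 of thymidine salvage by 0.33 and Pcna, the sliding clamp, by 0.46 in 1KI, and Tk1 fell by 0.45, Gmnn, which blocks licensing, by 0.53 and Ung by 0.51 in 3bKI. The list's median change was -0.37 in 1KI and -0.43 in 3bKI. Against 3aKO 9 fell in 1KI (31.0% of all genes passed) and 6 in 3bKI (34.2%), with 0 rising in either. Under the block Pola1 alone passed in 1KI against wt (-0.79, adjusted p = 0.0162), and 0 genes did in 3bKI against wt. Of 7 measured markers of cycling cells 0 passed in 1KI and 3bKI against wt, with list means of 6.06 (range 5.20 to 6.73) in 1KI and 6.40 (range 5.56 to 7.33) in wt, and of 6.23 (range 5.33 to 7.62) in 3bKI.

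Among the partners with which E2F6 represses, of which 8 of 9 were measured, 2 rose and 4 fell in 3bKI against wt, where 29.2% of all genes passed, with a median change of -0.22 (all genes 0.0012). Max fell by 0.87 ± 0.08 (SE, adjusted p = 1.79e-09), Mga, which pairs with Max, by 0.80 ± 0.09 and Yaf2 by 0.44, while Ring1, a ubiquitin ligase of Polycomb complexes, rose by 1.20 ± 0.12. In this list 1 gene rose and 3 fell under the hybridization control block, with Max at -0.96 (adjusted p = 1.33e-05), Mga at -0.81 and Ring1 at 0.60. Of all 18193 genes 1583 passed in that fit. With the 3' minus 5' measure as a covariate 1 gene of the list rose and 2 fell, where 605 of all genes passed. The main probe set of E2f6 itself did not pass. In 1KI against wt, where 27.6% of all genes passed, Ring1 rose by 0.72 and L3mbtl2 by 0.22. Rnf2, the close relative of Ring1, fell there by 0.19. Max and Mga had changes of -0.075 and 0.0093 in that comparison. Under the block 0 genes of the list passed in 1KI against wt, where 782 of all 18193 genes did.

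The MuvB complex acts with E2F4 and pocket proteins in resting cells and with B-Myb and FOXM1 in dividing ones. Of 7 genes for its subunits and for these last factors, 2 rose and 2 fell in 3bKI against wt, where 29.2% of all genes passed. Lin37 rose by 0.66 ± 0.09 and Mybl2, which encodes B-Myb, by 0.22, and Lin54, the DNA-binding subunit, fell by 1.14 ± 0.19 and Lin9 by 0.52. In 1KI against wt, where 27.6% of all genes passed, Lin52 rose by 0.35 and Lin54 fell by 0.50. Under the block Lin54 in 3bKI (-0.92, adjusted p = 0.0474) and Lin52 in 1KI (0.54, adjusted p = 0.0433) passed against wt. In these fits 1583 and 782 of all 18193 genes passed, and nothing particular to the complex is read from these counts.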

How the data were processed

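Total RNA from livers was labelled as biotin cRNA and read on Affymetrix arrays, per the labels' protocols. The authors deposited log2 signals of 45101 probe sets for 37 arrays in 59 columns, since 22 wt and 3aKO arrays appear in both of their normalizations; the sources used here do not name the normalization method or the log base, and the values run from 2.13 to 15.06. The deposited values were used as they are, with no further background correction. After leaving out 64 control probe sets, 34945 probe sets had 1 gene symbol in the platform annotation, 932 had several and 9160 had none. Only the first of these classes was used. Each of 18193 genes was read by 1 probe set, that of the highest mean signal within a normalization. The arrays of each normalization were fitted together by genotype in limma 3.58.1 (R 4.3.3; lmFit and eBayes), with Benjamini-Hochberg adjustment over all genes and a threshold of 0.05; the 11 further member probe sets come from the same fit over 34945 probe sets. Intervals are 95% confidence intervals. The fit was tested on simulated data. Differences between probe sets were tested by permutation in Python 3.11.15 with numpy 2.4.6, exact where a group had under 10 arrays and with 100000 resamples otherwise. Within a list, up to 4 genes with the smallest p among those that passed are named per comparison. The members, lists and tests were chosen with earlier results of these data known. Alternatives were other normalizations, filters, probe set rules, array weights, blocks and covariates, and each array left out in turn; the fits within 1 hybridization control level and the lists under the block were added after seeing the data. The number of arrays limits the precision of every value.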

Additional observations from a re-analysis of the deposited data

Results flagged for a closer look

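In 8 of 84 groups of 4 to 10 arrays examined, 1 array stood apart from the rest of its genotype by Dixon's criterion at the 95% level, where chance gives about 1 in 20 for a single group. The wt groups of 12 arrays were not examined. The 3aKO arrays enter once per normalization, and members vary together across arrays, so the groups are not independent. In 7 of the 8 this array was 3aKO replicate 1. E2f1 read 7.16 there at its main probe set in normalization 1, against 6.79 in the next array, and 7.38 and 7.31 at 1431875_a_at in the 2 normalizations, against 6.55 and 6.46. E2f7 read 5.82 and 5.72, against 5.31 and 5.17, and Tfdp1 read 9.77 and 9.80, against 9.42 and 9.45. The other case was 3aKO replicate 4 at E2f6 1437914_at in normalization 2, with 6.31 against 6.16. No cause was tested.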

How the results depend on the processing

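Of 593 settings 480 left a change the same, 56 lost and 11 gained the call, and 46 reversed, and the causes were not tested. These settings are member changes in fits that left out no array, and the leave-one-out extremes of the probe set differences that passed. A member change was the same where it kept its direction and its side of the threshold. A probe set difference was judged by sign and size. Most member changes were not called to begin with. For the 13 calls, 90 of 147 settings that left out no array kept the call, 56 lost it and 1 reversed. Of 59 counts of members called, 24 moved by over 1.5 times. Members called were 0 under the hybridization control block, with or without a sex index, in all 4 comparisons with a knock-in, and 0 within 1 level for either knock-in against wt. Within 1 level 174 and 133 of all 18193 genes were called in 1KI and 3bKI against wt. Under the integrity covariate 2 members were called in 1KI against wt and 0 in both 3bKI comparisons. Of all 18193 genes 5239 were called there in 1KI against wt, and 605 and 116 in 3bKI relative to wt and 3aKO. With the mean of a gene's probe sets the counts were 2 for 1KI relative to wt, 2 relative to 3aKO, and 3 and 5 for 3bKI relative to wt and 3aKO. With that mean 5430, 5670, 4972 and 5762 of all 18193 genes were called, in the same order. In 1KI against wt 2 members were called among genes above the median, with equal medians and with array weights. Over all genes these settings called 3799 of 9096, 4586 of 18193 and 5390 of 18193. Array weights gave 1 member in 3aKO against wt, where they called 307 of all genes, beside 32 in the main fit. Fitting the compared groups alone gave 3 members in 3bKI against wt, where 4741 of all genes were called. Leaving out each array gave 0 to 0 members for 3aKO relative to wt. For 1KI it gave 0 to 2 relative to wt and 3 to 4 relative to 3aKO. For 3bKI it gave 3 to 5 relative to wt and 3 to 4 relative to 3aKO. Calls over all genes were not counted in the fits without 1 array.

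Same-numbered arrays of 2 genotypes correlated between -0.34 and 0.38, and in no comparison were all pairs over 0.1, so the numbers were not taken to pair them. In 1KI against 3aKO 7 of 10 pairs were over 0.1 (lowest -0.084) and 5 of 10 arrays correlated best with their own number. In 1KI against wt 4 of 10 pairs were over 0.1 and 4 of 10 arrays correlated best with their own number. That number was 1 of 10 in 3aKO against wt, and 2 of 5 and 0 of 5 in 3bKI against wt and 3aKO. Such matches are a hint from the data and not from the design. A block for the replicate number called 4 members in 1KI against 3aKO, as did the fit without it. Of all genes it called 5214 there, beside 5636. The replicate block, which drops unshared numbers, called 0 members for 1KI and 2 for 3bKI relative to wt. Of all 18193 genes it called 3491 and 1964 in these 2 comparisons, beside 5026 and 5318 in the main fit. In 1KI against wt limma's adjusted p for Tfdp2 went from 0.0268 to 0.105 with this block. The block turned some changes to the other sign. It turned E2f7 to 0.012 in 3aKO against wt, E2f3 to 0.0020 in 1KI against wt, Tfdp1 to 0.020 in 3bKI against wt and E2f5 to 0.088 in 3bKI against 3aKO.

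Reversed changes under the mean of probe sets were E2f1 -0.010 and E2f6 0.0011 in 3aKO against wt, E2f5 -0.090 and Tfdp2 0.019 in 1KI against wt, E2f8 0.12 in 1KI against 3aKO, E2f5 -0.047 in 3bKI against wt and E2f3 0.19 in 3bKI against 3aKO. Array weights gave E2f2 -0.027 in 3aKO against wt, E2f6 0.012 and E2f8 0.012 in 1KI against 3aKO and E2f3 0.016 in 3bKI against 3aKO, and quantile normalization gave E2f5 0.075 there. Under the level block they were E2f3 0.19 in 1KI against wt (0.19 also within 1 level); E2f5 0.033, E2f6 0.010, E2f7 0.046 and E2f8 0.23 in 1KI against 3aKO; Tfdp1 0.16 in 3bKI against wt (0.16 also within 1 level); and E2f3 0.24, E2f5 0.12, E2f7 0.026 and Tfdp1 0.10 in 3bKI against 3aKO. With the sex index added they were E2f2 0.028 and E2f3 0.20 in 1KI against wt, E2f2 0.024, E2f5 0.078, E2f6 0.017, E2f7 0.070 and E2f8 0.28 in 1KI against 3aKO, Tfdp1 0.18 in 3bKI against wt, and E2f3 0.26, E2f5 0.13, E2f7 0.012 and Tfdp1 0.12 in 3bKI against 3aKO. Under the integrity covariate they were E2f6 0.0031 in 3aKO against wt, E2f5 -0.20 and Tfdp1 0.11 in 3bKI against wt, and E2f2 -0.053, E2f3 0.26 and Tfdp1 0.058 in 3bKI against 3aKO.

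Leaving out 1 array, changes that crossed 0 ran in 3aKO against wt from -0.012 to 0.10 for E2f1, -0.011 to 0.055 for E2f2 and -0.036 to 0.00073 for E2f6, in 1KI against wt from -0.059 to 0.0058 for E2f3 and -0.051 to 0.12 for E2f8, in 1KI against 3aKO from -0.064 to 0.0098 for E2f6 and -0.031 to 0.058 for Tfdp1, in 3bKI against wt from -0.18 to 0.023 for E2f7, and in 3bKI against 3aKO from -0.077 to 0.071 for E2f3, -0.097 to 0.043 for E2f5 and -0.14 to 0.066 for E2f7. Besides genotype, the hybridization control level is carried by 2 wt arrays, so the block has a wide error, and its 0 calls do not show that the members did not differ.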

Other observations

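Markers of other liver cells were read beside the family. In 3bKI against wt the markers that passed were 1 of 6 erythroid, 1 of 8 macrophage and Kupffer cell, 2 of 7 lymphocyte, 2 of 8 endothelial and 1 of 5 cholangiocyte markers, all higher, and of 8 stellate markers 1 rose and 2 fell, where 29.2% of all genes passed. None of 7 hepatocyte markers passed there, where limma gave 0 of them an adjusted p under 0.05, and their mean ran from 14.05 to 14.18 in 3bKI and from 14.12 to 14.22 in wt. In 1KI against 3aKO 3 of 8 macrophage and Kupffer cell markers and 3 of 7 lymphocyte markers fell, where 31.0% of all genes passed. The macrophage mean ran from 8.85 to 10.37 in 1KI and from 9.33 to 10.23 in 3aKO. With a block for the level of the hybridization controls, 1583 of all 18193 genes passed in 3bKI against wt and 417 in 1KI against 3aKO. Under that block the same 2 endothelial markers, Eng and Pecam1, passed in 3bKI against wt, and 0 of the macrophage, lymphocyte and erythroid markers passed in these comparisons. The part of these cells in the changes of the members was not tested.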
